A study of Homo sapiens with 9 samples.

Results

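The transcriptome of MCF10A cells with a Cas9 knockout of XRCC1 was compared with that of Cas9 control cells, over all 13052 genes of the authors' deposited table for that contrast, which is the same gene set as in the whole series. MCF10A is a non-transformed human mammary epithelial line that grows attached in medium with horse serum, epidermal growth factor, cholera toxin, insulin and hydrocortisone. The comparison rests on 6 of the 9 libraries of the series, whose title concerns telomeric chromatin, inflammation and senescence when XRCC1 is lacking. XRCC1-KO had 3 libraries of genotype XRCC1-knockout, APE1-KO had 3 libraries of an APE1 knockout and serves here only as a second contrast, and Control-KO had 3 libraries of cells that express Cas9 and are labelled wild type. Both knockouts were derived from the Cas9-expressing control cells, and no treatment is named for any group. The labels do not say whether a knockout is 1 clone or a pool, nor whether replicate libraries stem from separate cultures, so each p-value measures only the spread between libraries, which may be technical. Poly(A) RNA was sequenced, and the deposited values are 1 log2 fold change, F statistic and p-value per gene and contrast. Single-library values were not analysed here, and neither they nor the sequencing depth can be shown. In their place the leading fold changes carry a 95% interval, recovered from its F statistic.

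XRCC1 is a scaffold protein without known enzyme activity. It gathers DNA ligase III, polynucleotide kinase, aprataxin and polymerase beta at single-strand breaks that poly(ADP-ribose) polymerases have marked, and base excision repair ends on the same scaffold. In cells without it, such breaks last longer, poly(ADP-ribose) polymerase stays active and replication forks can meet unrepaired nicks.

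The label of the XRCC1-KO group could not be checked by the level of the targeted mRNA. XRCC1 (ENSG00000073050.7, on the minus strand of chromosome 19 from 44047192 to 44084625 in hg19) stood 0.135 above 0 on the log2 scale in the authors' deposited table (95% interval -0.10 to 0.37, F test p = 0.235). A frameshift made by Cas9 need not lower a transcript, so the results below describe the libraries labelled XRCC1-KO. All 12 epithelial and basal markers were in the table, with a mean log2 CPM between 6.34 and 12.2 (CPM, read counts scaled to a common library total). These means are taken over all libraries, and such markers cannot tell MCF10A from other basal epithelial cells. Of the markers of other cell types, 2 of 7 for fibroblasts, 3 of 6 for leukocytes, 1 of 5 for endothelium, 0 of 4 for adipocytes and 3 of 5 for neurons were in the table, and the deposited p of none of those was under 0.05 in XRCC1-KO. The highest of their mean log2 CPM values were 8.28 (neurons, TUBB3), 4.38 (leukocytes, CD68) and 4.08 (fibroblasts, COL1A1). These 3 genes were named after their values were seen.

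Differences between XRCC1-KO and Control-KO were small. No gene passed a false discovery rate of 0.05 in the authors' F test (0% of 13052), the smallest being 0.123. An unadjusted p under 0.05 was found for 778 genes (5.96%). If no gene differed, a share of about 0.05 would be expected at that threshold. Of these, 425 lay above 0 (3.26% of all genes) and 353 below 0 (2.7% of all genes). In the APE1-KO contrast, which shares its control libraries, 189 genes (1.45%) had an unadjusted p under 0.05. Among the 11317 genes at or above a mean log2 CPM of 1, the log2 fold change lay between -0.23 at the 5th percentile and 0.26 at the 95th, beside a median recovered standard error of 0.112. Over all genes the median was -0.00085, with 49.7% of genes above 0 and 50.3% below. A difference of at least 2-fold with an unadjusted p under 0.05 was seen in 55 genes, but 4 of them reached a mean log2 CPM of 1. Those 4 were S100A7, COL22A1 and 2 genes without a symbol.

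The genes above 0 with the smallest p-values belonged to several unrelated functions. The 20 named were taken from genes with a symbol. A nuclear copy of the mitochondrial 16S ribosomal RNA gene listed by identifier alone, ENSG00000271043.1, would otherwise have stood among them, at 0.55 in the authors' deposited table (1.47-fold, interval 1.26 to 1.72). Of the 20 named, 7 were in a list of p53 target genes, 3 were nuclear copies of a mitochondrial ribosomal RNA gene and 1, ND6, lies on mitochondrial DNA. INPP5D led the order. It encodes the inositol 5-phosphatase SHIP1, best known from blood cells, and had a mean log2 CPM of 5.61 in the authors' deposited table. Its log2 fold change was 0.76 in the authors' deposited table (1.70-fold, interval 1.42 to 2.02, p = 1.03e-05, false discovery rate 0.123). MRAS, a RAS-family GTPase that forms a phosphatase complex with SHOC2, stood at 0.87 in the authors' deposited table (interval 0.49 to 1.26, p = 0.000213). CST6, a secreted inhibitor of cysteine proteases in the upper epidermis, stood at 0.98 in the authors' deposited table (1.97-fold, interval 1.43 to 2.70). SMIM4, a small membrane protein of the mitochondrion, had 0.77 in the authors' deposited table (1.71-fold, interval 1.33 to 2.20). PSCA, a surface protein held by a lipid anchor, had 0.80 in the same table (1.74-fold, interval 1.26 to 2.39), and the calcium-binding protein S100A3 had 0.58 (interval 0.27 to 0.90). Smaller but precise values in the authors' deposited table were those of RGS12, which shuts off G proteins, at 0.27 (interval 0.13 to 0.40), of B4GALT7, which builds the sugar linker of proteoglycans, at 0.36 (interval 0.16 to 0.56), and of the endosomal sorting nexin SNX24 at 0.31 (interval 0.13 to 0.48).

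**Figure D1:**
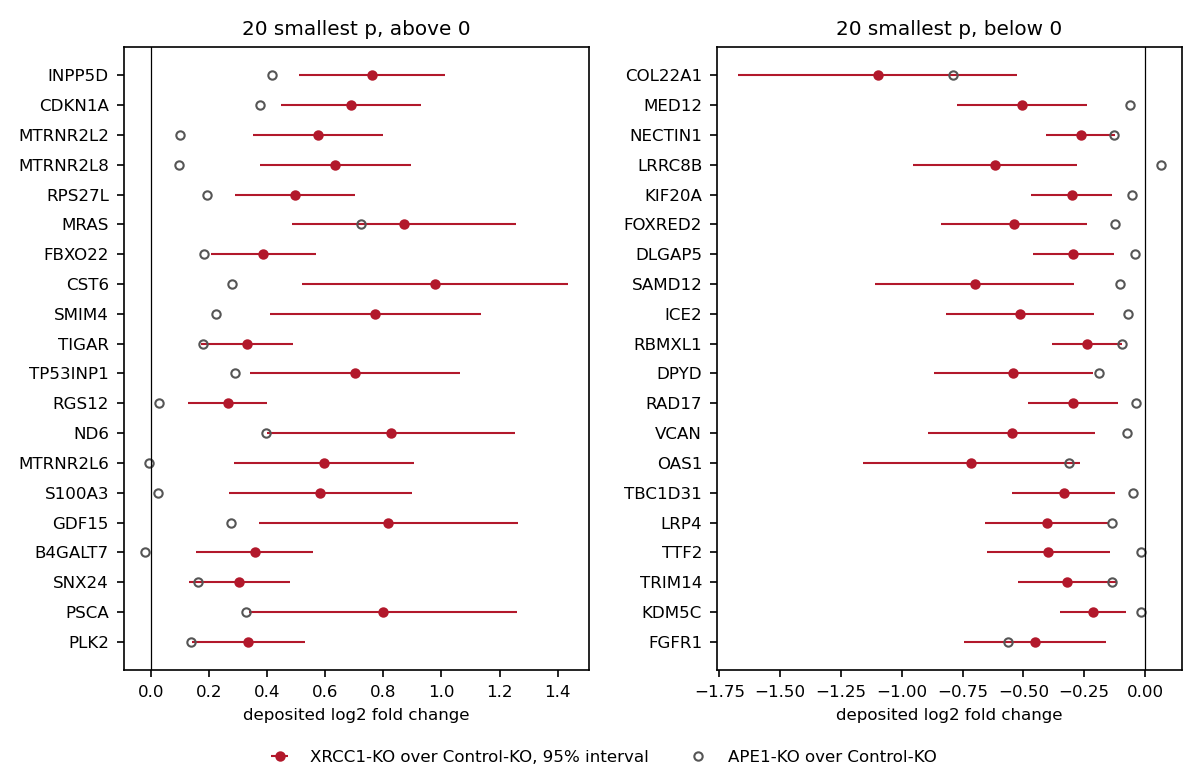
Log2 fold changes of the 20 genes above 0 (left) and the 20 below 0 (right) with the smallest deposited p-values among genes that carry a symbol, at or above a mean log2 CPM of 1. Filled points with bars are XRCC1-KO over Control-KO with the recovered 95% interval, and open points are APE1-KO over the same controls. MRAS lay at 0.87 in XRCC1-KO and 0.72 in APE1-KO, while B4GALT7 lay at 0.36 and -0.02.

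Below 0, the genes with the smallest p-values reached from the matrix to transcription. COL22A1, a collagen of tissue junctions, stood at -1.1 in the authors' deposited table (0.467-fold, interval 0.313 to 0.695, p = 0.000959) at a low mean log2 CPM of 1.17. MED12, a subunit of the kinase module of the Mediator complex, stood at -0.51 in the authors' deposited table (0.705-fold, interval 0.586 to 0.848, p = 0.00108). LRRC8B, a subunit of the volume-regulated anion channel, had -0.62 in the authors' deposited table (0.652-fold, interval 0.516 to 0.824). FOXRED2, a flavoprotein of the endoplasmic reticulum, and DPYD, which starts the breakdown of pyrimidines, both had -0.54 in the authors' deposited table. ICE2, a subunit of the little elongation complex that acts in the transcription of small nuclear RNA genes, had -0.51 in the same table. The adhesion receptor NECTIN1 was measured more precisely, at -0.26 in the authors' deposited table (interval -0.41 to -0.12) with a mean log2 CPM of 8.09. RAD17, which loads the checkpoint clamp onto damaged DNA, stood at -0.30 (interval -0.48 to -0.11) in the same table. In the same deposited table of the authors, the proteoglycan VCAN stood at -0.55, the growth factor receptor FGFR1 at -0.45, the interferon-induced sensor of double-stranded RNA OAS1 at -0.71, the LDL-receptor relative LRP4 at -0.40 and the histone H3 lysine 4 demethylase KDM5C at -0.21. None of these had a false discovery rate under 0.76. The plot of the 40 genes shows these values beside those of APE1-KO.

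Transcript length moved with the fold change across the whole table. The longest transcript of each gene was taken from the GENCODE 29 annotation, and 11175 nuclear genes at or above a mean log2 CPM of 1 were cut into 10 bins of length. In the shortest bin (median 1145 bases) the median log2 fold change in XRCC1-KO was 0.14 and 89.5% of genes lay above 0. In the longest bin (median 9569 bases) the median was -0.09 and 26.4% lay above 0. The shortest bin held 120 genes above 0 and 0 below 0 with an unadjusted p under 0.05, against 16 above and 54 below in the longest bin. Genes are no independent replicates, and as a description across them Spearman's rho with length was -0.457 and with GC content 0.345. In APE1-KO, over the same controls, the 2 values were 0.109 and -0.208. A smooth trend of length and GC was therefore fitted over these genes and removed from every gene, after which rho with length was -0.0076 and with GC 0.0017. The part of transcript length in the results was not tested beyond this, and the medians of the gene groups below are given as deposited, with the median after removal of the trend beside them.

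**Figure D2:**
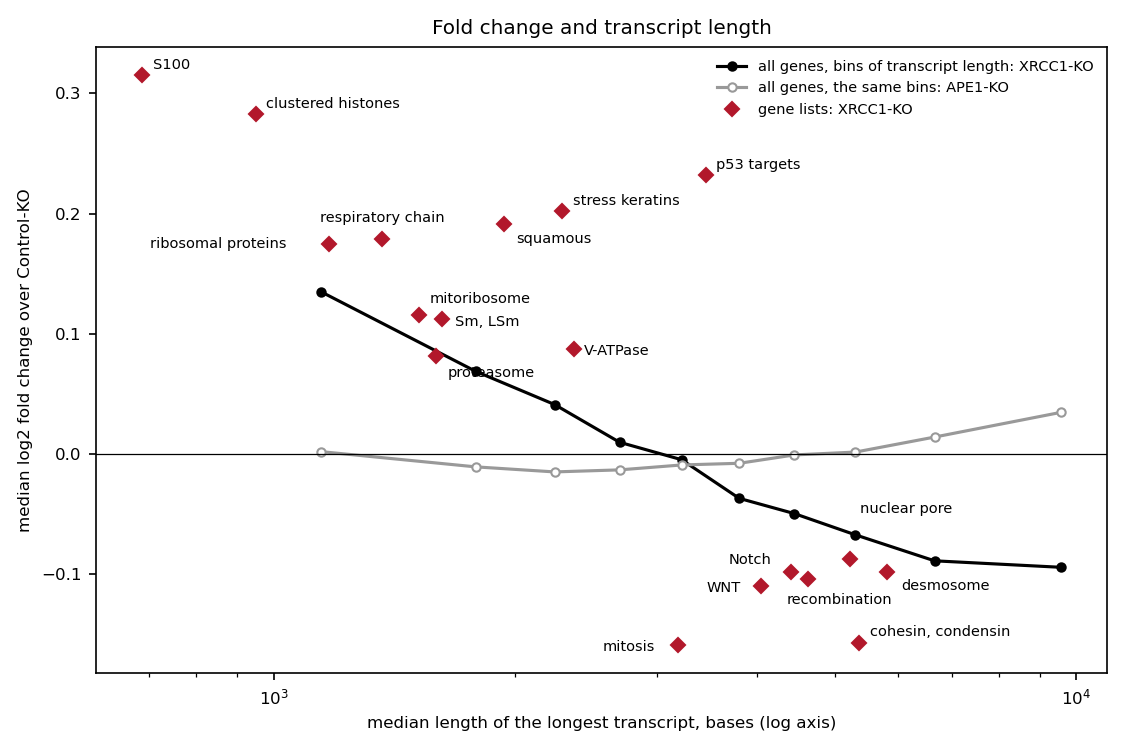
Median log2 fold change over Control-KO against the median length of the longest transcript in bases, on a log axis. Lines join 10 bins of 11175 nuclear genes, black for XRCC1-KO and grey for APE1-KO, and diamonds are the medians of 18 gene lists in XRCC1-KO. The black line runs from 0.14 to -0.09, and the p53, keratin and squamous lists lie above it while the mitosis and cohesin lists lie below it.

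With the trend removed, 542 of 12838 genes with a length had an unadjusted p under 0.05, compared with 765 of the same genes as deposited, and 366 genes were in both sets. The share with the trend removed thus lay under the 0.05 expected if no gene differed, whereas the deposited share over all genes was 5.96%. Genes above 0 numbered 344 with the trend removed and genes below 0 numbered 198, so the excess over 0 became larger than in the deposited values. The smallest adjusted p with the trend removed was 0.0973.

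For a view by function, 86 gene lists with 2899 distinct measured genes were read out. Of these genes 192 had an unadjusted p under 0.05, beside 778 of all 13052 genes (5.96%). At that threshold, 3.26% of all genes lay above 0 and 2.7% below 0, and the counts for single lists below stand beside these shares. Of the 82 lists with at least 8 measured genes, 11 had a median above 0.1 and 4 a median below -0.1 as deposited. With the trend removed, 6 lists had a median above 0.1 and 1 below -0.1. The highest deposited medians were those of the S100 proteins (0.32), the clustered histone genes (0.28), the p53 targets (0.23) and the stress keratins (0.20). Lowest were the lists of mitosis (-0.16), of cohesin and condensin (-0.16) and of the WNT pathway (-0.11). For 14 lists the median changed sign when the trend was removed, for example that of the giant and cullin-type ubiquitin ligases, at -0.06 as deposited and 0.03 with the trend removed. These are medians of lists that were chosen with results of these data in view, so no list carries a test.

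**Figure D3:**
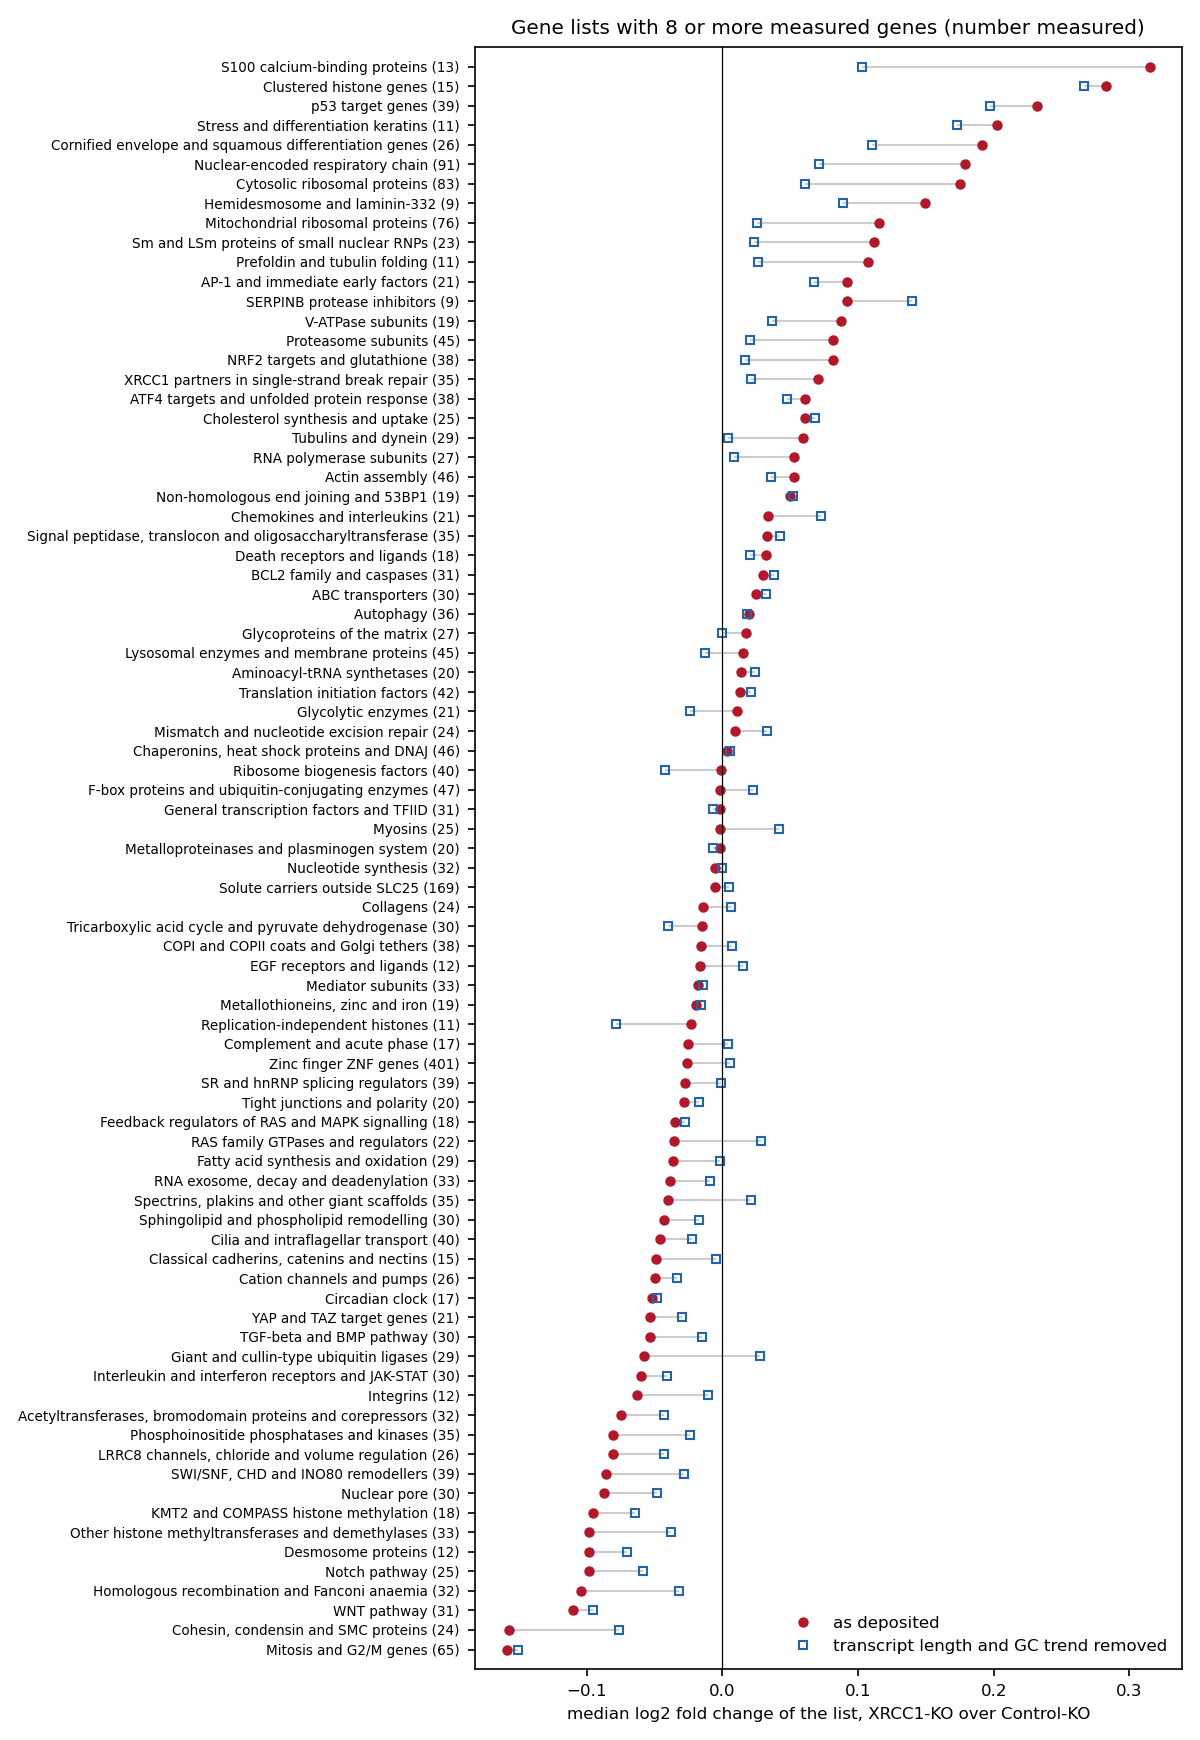
Median log2 fold change of XRCC1-KO over Control-KO for each of the 82 gene lists with at least 8 measured genes, with the number measured in brackets. Filled circles are the deposited values and open squares the values with the trend of transcript length and GC removed. The S100 median was 0.32 as deposited and 0.10 with the trend removed, and that of the mitosis list was -0.16 and -0.15.

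Genes of squamous differentiation stood higher in XRCC1-KO than in Control-KO. The list holds precursors of the cornified envelope, the crosslinked protein shell of upper epidermal cells, with their crosslinking enzymes and regulators. Of 42 listed genes 26 were measured, 21 of them lay above 0 and 3 had an unadjusted p under 0.05 above 0, against 3.26% of all genes, with 0 below 0. The median was 0.19 as deposited and 0.11 with the trend removed, and in APE1-KO it was -0.01 with 13 genes above 0 (49.5% of all genes lay above 0 there). Besides CST6, the 3 were IVL and A2ML1. IVL encodes involucrin, an early envelope scaffold, and stood at 0.52 in the authors' deposited table (1.44-fold, interval 1.05 to 1.98, p = 0.0284). A2ML1, a protease inhibitor of the granular layer, stood at 0.57 (interval 0.05 to 1.10) in XRCC1-KO and at 0.60 in APE1-KO in the authors' deposited tables. DMKN, a secreted epidermal protein, had 0.19 and SPRR1A, a small proline-rich envelope precursor named after its value was seen, had 0.67 in the authors' deposited table, both with intervals that include 0 (-0.01 to 0.38 and -0.07 to 1.41). Levels of the list were low, with a median of the mean log2 CPM of 2.00.

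The promoters of IVL and SPRR1A are shown because they hold the letters of the AP-1 site (TGACTCA, or TGAGTCA on the other strand), which occurred in 4 of the 11 promoters of this list that could be matched (36.4%). Among all 9096 matched promoters the share was 2.87%, among those of genes above 0 with an unadjusted p under 0.05 it was 6.09% of 279, and among those below 0 it was 1.14% of 263. The stretches run 5′ to 3′ from 150 bases before to 10 bases after the RefSeq start (GRCh38.p14), IVL at chr1:152908396-152908555, plus strand, and SPRR1A at chr1:152983931-152984090, plus strand, with the AP-1 letters in capitals.
IVL: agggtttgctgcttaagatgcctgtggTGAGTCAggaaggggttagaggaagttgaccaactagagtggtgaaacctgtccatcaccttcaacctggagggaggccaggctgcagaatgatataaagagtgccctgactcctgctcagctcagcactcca
SPRR1A: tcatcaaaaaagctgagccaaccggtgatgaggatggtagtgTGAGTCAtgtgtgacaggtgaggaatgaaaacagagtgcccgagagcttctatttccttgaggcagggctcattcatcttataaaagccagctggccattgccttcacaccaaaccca
The letters began 123 bases before the start in IVL and 108 bases before it in SPRR1A. A match describes the letters of the window and is neither a proven site nor a cause.

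None of the listed AP-1 and immediate early factors was called, and not all of them are AP-1 subunits. The list of AP-1 and immediate early factors had 21 measured genes, 16 above 0, a median of 0.09 (0.07 with the trend removed), and 0 genes with an unadjusted p under 0.05. The basic helix-loop-helix repressor BHLHE40 had 0.28 and the AP-1 subunit JUNB had 0.18 in the authors' deposited table, with p of 0.0922 and 0.171.

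Keratins and the gene families around them stood mostly in the same direction. Of 11 measured stress and differentiation keratins 9 lay above 0, with a median of 0.20 as deposited and 0.17 with the trend removed, and of 7 basal and simple keratins 6 lay above 0 with a median of 0.19 (0.16 with the trend removed). KRT16, a keratin of wounded and hyperproliferative epidermis, had 0.39 in the authors' deposited table (interval 0.02 to 0.75, p = 0.039). KRT7, a simple-epithelium keratin at a mean log2 CPM of 11.5, had 0.29 in the authors' deposited table (interval 0.03 to 0.56, p = 0.0336). KRT6A and KRT6B, near-identical copies between which counting may split reads, had 0.19 and 0.20 in the authors' deposited table. Their close relative KRT6C, named after its value was seen, had -0.25 (interval -0.69 to 0.20) at a mean log2 CPM of 2.86. All 13 measured S100 genes, small calcium-binding proteins of which many sit in the epidermal cluster on chromosome 1, lay above 0. An unadjusted p under 0.05 was found for 5 of them (38.46%), against 5.96% of all genes and 120 of the 1118 genes in the bin of shortest transcripts. S100A7, also called psoriasin, stood at 1.34 in the authors' deposited table (2.53-fold, interval 1.14 to 5.64, p = 0.0258), S100A2 at 0.34 (interval 0.05 to 0.62) with a mean log2 CPM of 12.1, and S100A6 at 0.32 (interval 0.04 to 0.59). S100 transcripts were the shortest of these families, with a median of 686 bases, and their median of 0.32 became 0.10 with the trend removed, with 10 of 13 above 0. With the trend removed, S100A7 stood at 1.1, S100A2 at 0.19 and S100A6 at 0.09, so the intervals above hold for the deposited values only. Each of the 5 measured kallikrein-related peptidases, proteases of skin shedding, lay above 0 with a median of 0.41 (0.27 with the trend removed), and none had an unadjusted p under 0.05. Their levels were low, with a median of the mean log2 CPM of -0.91, and the 2 members at or above 1 had a median of 0.26. Of 9 SERPINB inhibitors 6 lay above 0, with a median of 0.09 (0.14 with the trend removed).

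**Figure D4:**
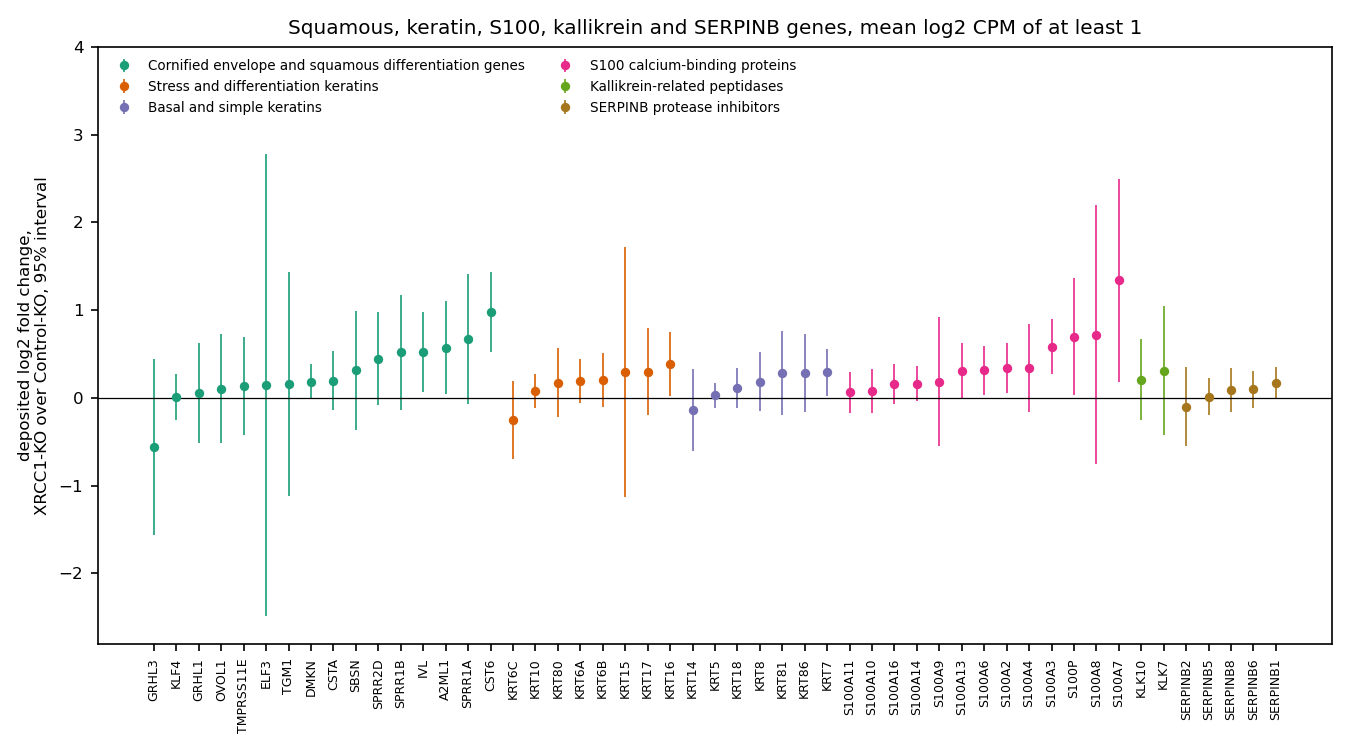
Deposited log2 fold change of XRCC1-KO over Control-KO with its recovered 95% interval for each squamous, keratin, S100, kallikrein and SERPINB gene at or above a mean log2 CPM of 1, coloured by list. Most points lie above 0, with CST6 at 0.98 and S100A7 at 1.34 among the highest, and most intervals include 0.

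Adhesion genes divided by structure. Desmosomes, which tie keratin filaments of neighbouring cells together, had 12 measured genes, of which 1 lay above 0, with a median of -0.10 (-0.07 with the trend removed). PKP4, a plaque protein, was the 1 gene below 0 with an unadjusted p under 0.05, at -0.14 in the authors' deposited table (p = 0.0396), against 2.7% of all genes. The cadherins DSG2 and DSC3 had -0.22 and -0.20 in the authors' deposited table, with intervals of -0.47 to 0.04 and -0.47 to 0.07. Hemidesmosomes, which fix keratin to the basement membrane, had 9 measured genes with 6 above 0 and a median of 0.15 (0.09 with the trend removed). ITGB4, the beta-4 integrin of the hemidesmosome, had 0.20 in the authors' deposited table (p = 0.032) and LAMB3, a chain of laminin-332, had 0.29 (p = 0.0679). Medians were -0.06 for integrins (12 measured, -0.01 with the trend removed), -0.05 for cadherins, catenins and nectins (15 measured, -0.0048 with the trend removed) and -0.03 for tight junction and polarity genes (20 measured, -0.02 with the trend removed). LLGL2, a basolateral polarity protein, stood at 0.19 in the authors' deposited table (interval 0.06 to 0.32, p = 0.00828).

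Matrix genes showed single members rather than a common direction. Collagens (24 measured) had a median of -0.01 (0.0064 with the trend removed), glycoproteins of the matrix (27 measured) 0.02 (-0.00022), and metalloproteinases with the plasminogen system (20 measured) -0.0020 (-0.0067). Next to COL22A1 and VCAN, the laminin chain LAMB1 stood at -0.16 in the authors' deposited table (p = 0.0351). YAP and TAZ target genes (21 measured) had a median of -0.05 (-0.03 with the trend removed), but the matricellular proteins CCN1 and CCN2 stood at 0.39 (interval 0.12 to 0.67, p = 0.00842) and 0.37 (p = 0.0796) in the authors' deposited table.

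Lipid and RAS signalling held the gene with the smallest p-value and its neighbours in function. Among 35 phosphoinositide phosphatases and kinases 12 lay above 0, with a median of -0.08 (-0.02 with the trend removed), so INPP5D was far from the centre of its family. INPP4A, which removes the 4-phosphate from the product of INPP5D, stood at -0.33 in the authors' deposited table (interval -0.58 to -0.08, p = 0.0135), and INPPL1, the paralogue SHIP2, named after its value was seen, at 0.23 (p = 0.0635). In the RAS family list (22 measured, median -0.04, and 0.03 with the trend removed) RRAS, which acts on integrins, had 0.27 in the authors' deposited table (p = 0.0353), after MRAS. Feedback regulators of RAS and MAPK signalling (18 measured, median -0.04, and -0.03 with the trend removed) included in the authors' deposited table DUSP10, a phosphatase of stress kinases, at -0.30 (p = 0.013) and SPRED1, a RAS inhibitor, at -0.26 (p = 0.0376). Of the EGF receptors and ligands (12 measured, median -0.02, and 0.01 with the trend removed), the receptor antagonist LRIG1 stood at -0.39 (interval -0.69 to -0.09) and the ligand AREG at 0.26 (p = 0.0286) in the authors' deposited table.

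WNT and Notch pathway genes lay mostly below 0. Of 31 measured WNT genes 6 lay above 0 and the median was -0.11 (-0.10 with the trend removed), but the 2 with an unadjusted p under 0.05 were ligands above 0 in the authors' deposited table, WNT9A at 0.37 (interval 0.06 to 0.67) and WNT7B at 0.22 (interval 0.02 to 0.42). The ligand WNT5A and the secreted antagonist SFRP1 had -0.35 and -0.15 in the authors' deposited table, with p of 0.0668 and 0.0695. Of 25 Notch pathway genes 8 lay above 0, with a median of -0.10 (-0.06 with the trend removed). In the authors' deposited table, the coactivators MAML1 and MAML3 had -0.24 (p = 0.013) and -0.42 (p = 0.0311), and TP63, the transcription factor of basal epithelial cells placed in this list, had -0.26 (p = 0.0942). In APE1-KO the medians of the WNT and Notch lists were -0.05 and -0.01.

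Secreted factors were uneven. Among 21 measured chemokines and interleukins, 4 lay above 0 with an unadjusted p under 0.05, against 3.26% of all genes. At the same threshold 1 lay below 0, against 2.7% of all genes. The median was 0.03 (0.07 with the trend removed, and 0.12 over the 16 genes at or above a mean log2 CPM of 1). The interleukin-6 family cytokine LIF stood at 0.71 in the authors' deposited table (1.64-fold, interval 1.10 to 2.44), IL1A, an alarm cytokine of epithelium, at 0.31 (1.24-fold, interval 1.02 to 1.51), and the neutrophil chemokine CXCL3 at 1.4 with a mean log2 CPM of -0.90. IL11, another member of the interleukin-6 family, had 0.43 in the authors' deposited table (interval 0.02 to 0.84). CXCL14, named after its value was seen, stood at -0.90 in the authors' deposited table, at a mean log2 CPM of -0.64. Receptors of interleukins and interferons with JAK-STAT genes (30 measured, 7 above 0) had a median of -0.06 (-0.04 with the trend removed), complement and acute phase genes (17 measured) -0.03 (0.0039), and the TGF-beta and BMP pathway (30 measured) -0.05 (-0.01), the last with 0 genes at an unadjusted p under 0.05.

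Chromatin regulators lay slightly below 0 as a class of long transcripts. Of 33 histone methyltransferases and demethylases outside the KMT2 group 4 lay above 0, with a median of -0.10 as deposited and -0.04 with the trend removed. SWI/SNF, CHD and INO80 remodellers (39 measured, 8 above 0) had -0.09 and -0.03, and the KMT2 and COMPASS group (18 measured, 6 above 0) had -0.10 and -0.06. Next to KDM5C, NSD2, which methylates histone H3 lysine 36, stood at -0.21 in the authors' deposited table (p = 0.0327). ARID1B, a SWI/SNF subunit, stood at -0.20 in the authors' deposited table (p = 0.0181), and SETD1B, which methylates histone H3 lysine 4, at -0.24 (interval -0.41 to -0.07). KMT2C, of the same enzyme class as SETD1B and with a transcript of 16860 bases, stood above 0 at 0.28 (interval 0.08 to 0.49) in XRCC1-KO and at 0.44 in APE1-KO in the authors' deposited tables. The Mediator list (33 measured) had a median of -0.02 (-0.01 with the trend removed), with the kinases of its kinase module, CDK8 and CDK19, at -0.16 (p = 0.0562) and -0.31 (p = 0.0574) next to MED12 at -0.51 in the authors' deposited table. The 401 measured ZNF zinc finger genes had a median of -0.03 (0.0055 with the trend removed), with 8 above 0 and 5 below 0 at an unadjusted p under 0.05.

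Clustered histone genes stood higher, at low levels. These genes are transcribed in S phase, and most of their transcripts end in a stem-loop, so that a poly(A) library holds mainly their polyadenylated forms. Of 15 measured genes 12 lay above 0, with a median of 0.28 (0.27 with the trend removed, with 9 above 0). An unadjusted p under 0.05 was found for 3 of the 15 (20%), against 5.96% of all genes. Over the 7 genes at or above a mean log2 CPM of 1 the median was 0.43, and the mean weighted by the inverse squared error was 0.45. In APE1-KO, over the same controls, the median was 0.20 and 3 genes had an unadjusted p under 0.05, against 1.45% of all genes. H2BC4 stood at 1.09 in the authors' deposited table (2.13-fold, interval 1.41 to 3.22), the linker histone H1-2 at 0.86 (1.82-fold, interval 1.27 to 2.60), and H2AC18, which has a near-identical copy that may share its reads, at 0.79 (1.73-fold, interval 1.25 to 2.38). Replication-independent histones (11 measured) had a median of -0.02 (-0.08 with the trend removed).

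Promoters of H2BC5 and H2AC6 are shown as examples of the TATA box, TATAAA, which 5 of the 7 matched clustered histone promoters held (71.4%), against 5.13% of all 9096 promoters. H2BC5 had 0.43 (p = 0.0531) and H2AC6, named after its value was seen, had 0.54 in the authors' deposited table (p = 0.0694). Both stretches have the same limits as above, in GRCh38.p14 from RefSeq, H2BC5 at chr6:26157971-26158130, plus strand, and H2AC6 at chr6:26124022-26124181, plus strand, with TATAAA in capitals.
H2BC5: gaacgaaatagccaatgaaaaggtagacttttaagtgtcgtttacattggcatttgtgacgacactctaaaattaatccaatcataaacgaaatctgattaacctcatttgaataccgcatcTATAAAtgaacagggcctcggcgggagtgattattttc
H2AC6: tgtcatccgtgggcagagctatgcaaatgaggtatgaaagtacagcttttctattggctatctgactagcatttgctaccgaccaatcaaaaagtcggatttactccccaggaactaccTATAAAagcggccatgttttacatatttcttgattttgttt
The box began 28 bases before the start in H2BC5 and 31 bases before it in H2AC6. The CCAAT letters, found on either strand in 37.3% of all promoters, occurred in 7 of the 7.

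Cohesin, condensin and other SMC complexes, which hold sister chromatids together and fold chromosomes, lay below 0 almost throughout. Of 24 measured genes 2 lay above 0 and 4 had an unadjusted p under 0.05, all below 0, beside 2.7% of all genes. The median was -0.16 as deposited and -0.08 with the trend removed, at a median transcript length of 5362 bases, and in APE1-KO it was -0.01. SMC2, a core subunit of both condensins, stood at -0.32 in the authors' deposited table (0.802-fold, interval 0.673 to 0.956), and its partner SMC4 at -0.23 (0.852-fold, interval 0.730 to 0.995). STAG2, a cohesin subunit, had -0.30 in the authors' deposited table (0.811-fold, interval 0.695 to 0.946) and RAD21, the cohesin ring's closing subunit, had -0.25 (0.839-fold, interval 0.726 to 0.969).

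Promoters of SMC2 and SMC4 are shown because both hold the letters of the cell cycle gene homology region (TTTGAA, or TTCAAA on the other strand). These letters occurred in 8 of 20 cohesin and condensin promoters (40%), in 37 of 55 promoters of the mitosis list (67.3%) and in 845 of all 9096 (9.29%). Among genes below 0 with an unadjusted p under 0.05 the share was 20.2% of 263, and outside the mitosis list it was 17.5% of 251. Among those above 0 it was 4.66% of 279. The stretches have the same limits, in GRCh38.p14 from RefSeq, SMC2 at chr9:104094159-104094318, plus strand, and SMC4 at chr3:160399500-160399659, plus strand, with TTCAAA in capitals.
SMC2: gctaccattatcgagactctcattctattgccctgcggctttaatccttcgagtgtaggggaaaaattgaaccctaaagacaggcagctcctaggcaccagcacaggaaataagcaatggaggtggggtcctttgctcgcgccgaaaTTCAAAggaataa
SMC4: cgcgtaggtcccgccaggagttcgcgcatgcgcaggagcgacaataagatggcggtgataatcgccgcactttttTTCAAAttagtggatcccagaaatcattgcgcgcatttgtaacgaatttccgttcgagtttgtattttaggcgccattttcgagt
In SMC2 the letters began 3 bases before the start and in SMC4 75 bases before it.

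Other genes of the nucleus followed at smaller size. Nuclear pore genes (30 measured, 6 above 0) had a median of -0.09 (-0.05 with the trend removed), with the pore anchor NDC1 at -0.29 (interval -0.50 to -0.07) and the scaffold subunit NUP133 at -0.21 in the authors' deposited table (p = 0.0414). Homologous recombination and Fanconi anaemia genes (32 measured, 8 above 0) had a median of -0.10 (-0.03 with the trend removed), and none had an unadjusted p under 0.05. Partners of XRCC1 in single-strand break repair (35 measured, 25 above 0) had a median of 0.07 (0.02 with the trend removed), also with none, the smallest p being that of the replication clamp PCNA at 0.13 in the authors' deposited table (p = 0.0564). Of the mismatch and nucleotide excision repair genes (24 measured, median 0.01, and 0.03 with the trend removed), the damage sensor DDB2, itself a p53 target, stood at 0.26 (interval 0.09 to 0.44) and the nuclease subunit ERCC1 at 0.23 (p = 0.0318) in the authors' deposited table.

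Subunits of large assemblies encoded by short transcripts stood above 0. Of 83 cytosolic ribosomal protein genes 82 lay above 0, with a median of 0.18. With the trend removed the median was 0.06 and 59 lay above 0, against 49.9% of all genes with a length. In the bin of shortest transcripts, 89.5% of 1118 genes lay above 0, and 120 of them had an unadjusted p under 0.05. Of the ribosomal genes 11 (13.25%) did, against 5.96% of all genes. RPS27L, a p53-responsive paralogue of a small-subunit protein, led with 0.50 in the authors' deposited table (1.41-fold, interval 1.22 to 1.63), and ribosomal protein genes have many processed copies that may share reads. Nuclear-encoded respiratory chain genes (91 measured, 85 above 0) had a median of 0.18 (0.07 with the trend removed). Of these, 13 above 0 and 1 below 0 had an unadjusted p under 0.05 (15.38%), against 5.96% of all genes. The median transcript length of this list was 1366 bases, within the bin of shortest transcripts, where 120 of 1118 genes were so called. NDUFS6 of complex I stood at 0.35 (p = 0.00302) and UQCR11 of complex III at 0.47 in the authors' deposited table (p = 0.011). Mitochondrial ribosomal proteins (76 measured, 66 above 0) had 0.12 and, with the trend removed, 0.03. The proteasome (45 measured, 39 above 0) had 0.08 and 0.02, Sm and LSm proteins of the spliceosome (23 measured, 21 above 0) had 0.11 and 0.02, and the V-ATPase that acidifies lysosomes (19 measured, 16 above 0) had 0.09 and 0.04. For these 4 assemblies the median transcript lengths were 1516, 1591, 1621 and 2365 bases. Their medians in APE1-KO lay between 0.0034 and 0.05.

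**Figure D5:**
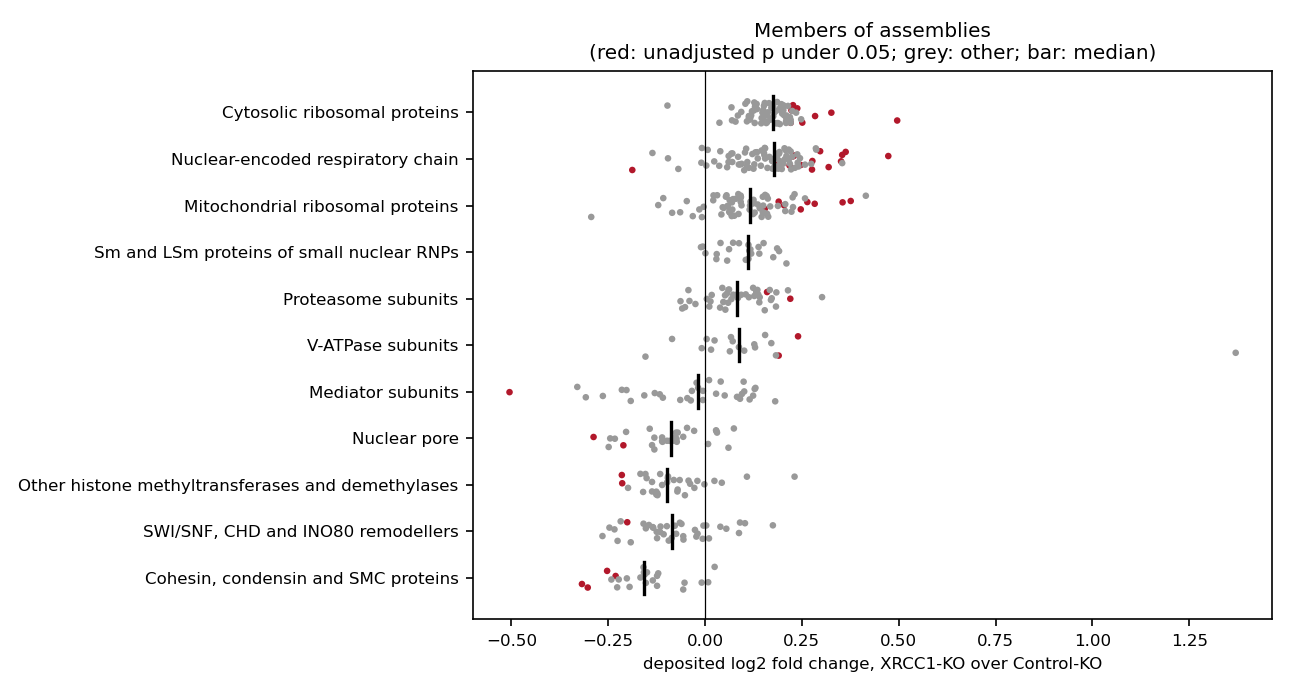
Deposited log2 fold change of XRCC1-KO over Control-KO for each member of 11 assemblies, one point per gene with the median as a bar. Red points have an unadjusted p under 0.05 and grey points do not. Ribosomal and respiratory chain genes have medians of 0.18, cohesin and condensin genes one of -0.16, and the lowest point of Mediator is MED12 at -0.51. The V-ATPase point far to the right is the scarcely expressed ATP6V1C2, named after its value was seen, at 1.37.

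Some long transcripts stood apart from their class. SRRM2, the scaffold of nuclear speckles, has a transcript of 9353 bases and stood at 0.50 in the authors' deposited table (1.42-fold, interval 1.13 to 1.77, p = 0.00463) while the SR and hnRNP list (39 measured) had a median of -0.03 (-0.0012 with the trend removed). UBR4, a giant ubiquitin ligase with a transcript of 15910 bases, stood at 0.38 in the authors' deposited table (interval 0.07 to 0.69), and CUL9, a cullin that binds p53, at 0.35 (p = 0.032), in a list of 29 with a median of -0.06 (0.03 with the trend removed). MYO1E, a membrane-linked myosin, had 0.38 (p = 0.0316), and the giant scaffold AHNAK2 had 0.39 in the authors' deposited table (p = 0.0232). The authors' deposited table for APE1-KO gave -0.015 for SRRM2 and 0.13 for UBR4.

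Protein quality control and stress lists held few members with small p-values. ATF4 targets and unfolded protein response genes (38 measured, 24 above 0) had a median of 0.06 (0.05 with the trend removed), with DDIT3, the CHOP transcription factor, at 0.72 (p = 0.0423) and SESN2, a stress sensor of amino acid signalling, at 0.20 in the authors' deposited table (p = 0.0303). Autophagy genes (36 measured) had a median of 0.02, also with the trend removed, with the receptor OPTN at 0.27 in the authors' deposited table (interval 0.07 to 0.47). Chaperonins and heat shock proteins (46 measured) had a median of 0.0035 (0.0058 with the trend removed), with the co-chaperone DNAJB2 at 0.33 in the authors' deposited table (p = 0.0247). Genes of signal peptide recognition and translocation (35 measured, 25 above 0) had a median of 0.03 (0.04 with the trend removed), with 4 above 0 and 1 below 0 at an unadjusted p under 0.05, among them the recognition particle subunit SRP14 at 0.24 in the authors' deposited table (p = 0.0139). FBXO22, an F-box protein reported as a p53 target, stood at 0.39 in the authors' deposited table (1.31-fold, interval 1.15 to 1.48) in a list of F-box and ubiquitin-conjugating genes (47 measured) with a median of -0.0014 (0.02 with the trend removed).

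Metabolic lists outside the mitochondrion stood near 0. Glycolytic enzymes (21 measured) had a median of 0.01 with 13 above 0 (-0.02 with 4 above 0 once the trend was removed) and 0 genes with an unadjusted p under 0.05, and nucleotide synthesis (32 measured) had -0.01 (-0.00026 with the trend removed), also with 0. Cholesterol synthesis and uptake (25 measured, 17 above 0) had 0.06 (0.07 with the trend removed) in XRCC1-KO and 0.06 in APE1-KO, with MVD, which makes isopentenyl pyrophosphate, at 0.21 in the authors' deposited table (p = 0.0199). NRF2 targets (38 measured, 27 above 0) had 0.08 (0.02 with the trend removed), with the oxidative stress gene OSGIN1 at 0.61 in the authors' deposited table (interval 0.20 to 1.01, p = 0.00611). In the authors' deposited table the metallothionein MT1E had 0.34 (p = 0.0329) and the zinc importer SLC39A10 had -0.30 (p = 0.0218) in a list of metal handling genes with a median of -0.02, also with the trend removed.

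Among channels, the volume-regulated anion channel had 2 subunits below 0 with an unadjusted p under 0.05, LRRC8B and LRRC8D, the second at -0.16 in the authors' deposited table (interval -0.31 to -0.01), in a list of 26 chloride and volume genes with a median of -0.08 (-0.04 with the trend removed). CLIC3, an intracellular chloride channel protein, stood at 0.99 in the authors' deposited table (1.98-fold, interval 1.05 to 3.73) at a mean log2 CPM of 1.35, and the scramblase-family member ANO9 at 0.28 (interval 0.09 to 0.47). PIEZO1, a mechanosensitive cation channel, had 0.32 in the authors' deposited table (p = 0.0299). The 169 solute carriers outside the SLC25 family had a median of -0.01 (0.0045 with the trend removed), with 5 above 0 and 3 below 0 at an unadjusted p under 0.05. Lists of actin assembly (46 measured), tubulins and dynein (29 measured) and cilia (40 measured) had medians of 0.05, 0.06 and -0.05 (0.04, 0.0045 and -0.02 with the trend removed).

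Cell death genes were mixed. The BCL2 family with the caspases (31 measured) had a median of 0.03 (0.04 with the trend removed). It had 5 genes above 0 and 2 below 0 with an unadjusted p below 0.05. Over all genes the shares were 3.26% above 0 and 2.7% below 0. In the authors' deposited table, the death effector BAX stood at 0.26 (p = 0.0137) and the survival factor BCL2L1 at 0.23 (p = 0.031), while the survival factor BCL2 stood at -0.26 in the authors' deposited table (p = 0.0401). Death receptors and ligands (18 measured) had a median of 0.03 (0.02 with the trend removed) and 0 genes with an unadjusted p under 0.05. For scale, the 39 measured p53 targets had a median of 0.23 (0.20 with the trend removed) with 18 above 0 at an unadjusted p under 0.05, and the 65 mitosis genes had -0.16 (-0.15 with the trend removed) with 14 below 0. Genes under that threshold made up 46.15% of the p53 list, against 5.96% of all genes. The list holds only 39 of the 13052 genes, so most such genes must lie outside it (760 of 778).

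Nuclear copies of the mitochondrial 16S ribosomal RNA gene, the MTRNR2L family, stood together. Of 8 measured copies all lay above 0, from 0.54 to 0.99 as deposited and from 0.14 to 0.95 with the trend removed. The copy with the highest value had a mean log2 CPM of 0.89. The copy that the authors' deposited table names MTRNR2L2 on chromosome 3 (GENCODE 29 gives its identifier ENSG00000269028 the name MTRNR2L12) stood at 0.575, with a mean log2 CPM of 9.46 (1.49-fold, interval 1.28 to 1.74). MTRNR2L8 stood at 0.64 and MTRNR2L6 at 0.60 in the same table. Reads of these copies and of the mitochondrial gene are near-identical and cannot be told apart by these values. The 13 protein genes of mitochondrial DNA had a median of 0.42 with 9 of them (69.2%) at an unadjusted p under 0.05, against 5.96% of all genes. Their median was 0.29 with the trend, which was fitted on nuclear genes, removed, at a median transcript length of 784 bases.

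Chromosome medians were narrow outside the mitochondrial genome. Medians of the nuclear chromosomes lay between -0.05 and 0.06. Of the 20 genes next to XRCC1 on chromosome 19, 10 on each side, 15 lay above 0 with a median of 0.09 (0.07 with the trend removed), and 1 had an unadjusted p under 0.05, ZNF428 at 0.26 (p = 0.0341) in the authors' deposited table.

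The difference between the knockouts was tested directly for every gene, as XRCC1-KO minus APE1-KO. APEX1, the gene targeted in APE1-KO, was the 1 gene of 13052 (0.00766%) that passed an adjusted p of 0.05 (Student's t with Benjamini-Hochberg adjustment), with a difference of 1.52 and an adjusted p of 7.12e-06. With APEX1, 97 genes (0.743%) had an unadjusted p under 0.05. None of the other genes named above was called after adjustment. LRRC8B had -0.62 in XRCC1-KO and 0.06 in APE1-KO in the authors' deposited tables (difference -0.68, unadjusted p = 0.00763, adjusted p = 1.00). CST6 had 0.98 in XRCC1-KO and 0.28 in APE1-KO in the authors' deposited tables (difference 0.70, unadjusted p = 0.0378). SMIM4 had 0.77 in XRCC1-KO and 0.22 in APE1-KO in the authors' deposited tables (difference 0.55, unadjusted p = 0.0383). For MRAS, 0.87 in XRCC1-KO and 0.72 in APE1-KO in the authors' deposited tables gave a difference of 0.15 with a standard error of 0.26, and for FGFR1, -0.45 and -0.56 gave 0.11 with a standard error of 0.20. Both contrasts use the same 3 control libraries, so their values are given side by side and no likeness is drawn from them.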

How the data were processed

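RNA of 3 XRCC1-KO, 3 APE1-KO and 3 Control-KO libraries was sequenced, and 2 tables of the authors' own comparisons with 13052 genes each were used. The submitters' processing notes name Trim Galore, Salmon 1.4.0, edgeR and the build hg19; the model, its filters and its scaling factors are not given in the sources used. Per the file headers, the deposited values are a log2 fold change, a mean log2 CPM, an F statistic (a score without unit), an unadjusted p-value, a false discovery rate and −log10 of the p-value. The deposited false discovery rates differed by at most 0.00223 from a Benjamini-Hochberg adjustment of the deposited p-values.

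From these, each standard error was recovered as the size of the log2 fold change over the root of F, where F reached 0.01. Below that F, the error came from the other contrast. The 95% intervals were taken from Student's t. Its denominator degrees of freedom were solved from F and p for each gene with F above 3, and their median of 15.24 was used elsewhere. No counts were at hand, so depth is unknown and no test was refitted. A robust cubic trend of log2 transcript length and GC content (longest GENCODE 29 transcript, found for 12838 genes, 98.4%) was fitted on nuclear genes at or above a mean log2 CPM of 1. The XRCC1-KO minus APE1-KO difference was tested without the covariance of the shared controls, which widens its error. All of this used Python 3.11.15 with numpy 2.4.6, pandas 2.3.3, scipy 1.17.1, statsmodels 0.14.6 and matplotlib 3.10.9, and the recovered errors and the trend were tested on simulated data.

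Named genes were XRCC1, the 20 above and 20 below 0 with the smallest p (at or above a mean log2 CPM of 1, leaving out genes that the tables list by identifier alone), up to 4 members per list by p, and the neighbours of XRCC1. Other names are marked as chosen after their value was seen. Gene lists, members and motifs were chosen with earlier results of these data known. Promoters (RefSeq, GRCh38.p14, 300 bases, 250 before the start) were found for 9096 of 11317 genes. On both strands 14 motifs were searched: the TATA box TATAAA, the CCAAT box, the GC box GGGCGG, the AP-1 site TGACTCA, the cyclic AMP element TGACGTCA, the antioxidant element TGACNNNGC (which can overlap the AP-1 site), the E-box CACGTG, the ETS site CCGGAAG, the NRF1 palindrome, the YY1 site AAGATGGC, the cell cycle region TTTGAA, its relative written TTTAAA, the TEAD site GGAATG and the interferon-stimulated response element.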

Additional observations from a re-analysis of the deposited data

Results flagged for a closer look

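APEX1, the gene targeted in APE1-KO, differed between the knockouts by 1.52 on the log2 scale (XRCC1-KO minus APE1-KO), with 0.02 in XRCC1-KO and -1.5 in APE1-KO in the authors' deposited tables. It was the 1 of 13052 genes whose difference passed the adjusted test, and it follows from the design of the APE1-KO group.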

How the results depend on the processing

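The count of 0 genes past the false discovery rate was the same at or above a mean log2 CPM of 1 or of 3, after centring on the genes at or above 3, and with the trend removed, and the XRCC1-KO minus APE1-KO difference gave 1 gene with the covariance of the shared controls and at or above a mean log2 CPM of 1. With an unadjusted p under 0.01 in place of 0.05, 82 genes lay above 0 and 52 below. With the length and GC trend removed, 198 genes lay below 0. Of the 82 list medians, 7 changed sign when centred, with a largest shift of 0.0096, 3 when limited to genes at or above a mean log2 CPM of 1 (largest shift 0.15, clustered histones) and 8 as a weighted mean (0.16, clustered histones). With the trend removed 14 changed sign (largest shift 0.21, S100 proteins), the mitochondrial ribosomal median stood at 0.03 against 0.12 as deposited, and that of cohesin at -0.08 against -0.16. With genomic span added to the trend, an alternative chosen after seeing the data, 18 changed sign, and the S100, ribosomal and respiratory chain medians were 0.09, 0.05 and 0.06. No paired analysis was possible because values per library were not analysed here, and leaving out single libraries was not possible for the same reason.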
